A study of Mus musculus with 87 samples.

Results

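The 33 genes described here repair DNA or signal that it is damaged or incompletely copied. They were taken by gene symbol from the protein-coding genes of a table of 37991 mouse liver genes. The list was drawn up by function, with earlier results of these data known. They occupy 34 rows, because Rad54b is listed under 2 Ensembl identifiers, and all 34 rows were among the 15396 genes tested. Each of the 80 libraries analysed holds poly(A) RNA from 1 liver of a male C57BL/6 mouse of 12 to 14 weeks, kept on a 12 h light and 12 h dark cycle with food given only in the dark. Mice underwent partial hepatectomy (PH, removal of most of the liver mass) or sham surgery (laparotomy alone) at zeitgeber time (ZT, hours after lights on) 2, or were not operated on. The unoperated groups were C0 (ZT 2, n = 9), C4 (ZT 6, n = 3) and C4W (4 weeks, n = 2). The sham groups were S1 (1 h after surgery, n = 6), S4 (4 h, n = 5), S10 (10 h, n = 3), S20 (20 h, n = 3) and S48 (48 h, n = 3). The post-PH groups were X1 (n = 6), X4 (n = 3), X10 (n = 6), X20 (n = 6), X28 (n = 3), X36 (n = 6), X44 (n = 3), X48 (n = 5) and X72 (n = 3), named by hours, and X1W (1 week, n = 3) and X4W (4 weeks, n = 2). S48, X48 and X72 were taken at ZT 2 as C0 was, X28 at ZT 6, X36 at ZT 14, and S20, X20 and X44 at ZT 22, so a post-PH group at another hour differs from C0 in the time of day as well as in surgery.

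Most hepatocytes of an adult liver are outside the cell cycle, and PH brings them back into it. Cells that copy their DNA can mend a broken strand from the sister copy by homologous recombination, which uses Brca1, Brca2 and Bard1. The Fanconi anaemia proteins clear links between the strands, and the kinases Atr and Chek1 hold back the cycle while replication forks are stalled. End joining with the Ku proteins Xrcc5 and Xrcc6, base excision repair and the sensor Parp1 work in dividing and non-dividing cells alike.

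Levels are given as RPKM, reads scaled to transcript length and to library size. Differences between group means were taken after adding 0.25 to each RPKM value and passing to log2, which makes the change of a low gene look smaller than it was. A gene is said to have risen or fallen where limma gave a Benjamini-Hochberg adjusted p under 0.05 over all genes tested and the difference exceeded 0.5. The estimated depth per library was 12200000 to 48800000 reads (median 26800000), so that the lowest values below rest on a handful of reads. The summed level of 8 hepatocyte markers was 33200 to 55400 RPKM in X36 and 47100 to 56000 in C0. Libraries of C0, X20, X28 and X36 stood apart in genes that matter here. C0 replicate 2 was the highest of 9 for Chek1, Fanca and Fanci and had a summed level of 15 mitosis genes of 7.25 RPKM, against 1.02 to 2.68 in the other C0 libraries. X36 replicate 2 was the lowest of 6 for several members and had a summed level of 15 replication genes of 105 RPKM, against 199 to 298. The same sum was 14.7 in X28 replicate 3 against 42.1 and 44.2 in the other X28 libraries, and 30.5 to 42.4 in X20 replicates 1 to 3 against 24.2 or less in replicates 4 to 6.

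Before surgery the members spanned a continuous range of levels. At its lower end in C0, near the limit of detection, stood Exo1, a nuclease that resects DNA ends, with a mean of 0.0144 RPKM ± 0.0168 (SD, n = 9), Rad54l, a motor protein of strand exchange, 0.0203 ± 0.0247, Fanci 0.0217 ± 0.0241, Fancd2 0.0229 ± 0.0129 and Clspn, the adaptor through which Atr reaches Chek1, 0.025 ± 0.0233. In between lay Prkdc at 0.509 ± 0.133, Lig4 at 0.741 ± 0.142, Atr at 1.10 ± 0.269 and Msh6 at 2.30 ± 0.371. At the upper end Parp1, which marks strand breaks with ADP-ribose chains, had 7.59 RPKM ± 1.19 and the Ku subunit Xrcc5 7.13 ± 0.534, followed by Nbn of the break-sensing Mre11 complex at 4.96 ± 0.535, the other Ku subunit Xrcc6 at 2.96 ± 0.273 and Tipin, a fork-protection protein, at 2.86 ± 0.468. Tipin and Xrcc6 differed by less than their spread. Of the 34 rows, 10 exceeded the detection threshold of -1.5 log2 RPKM in all 80 libraries and 21 in at least 1 of the 34 unoperated or sham libraries. The other 13 exceeded it in post-PH libraries and in none of those 34: Bard1, Rad54l, Rad18, Rad51ap1, Fanca, Fancd2, Brip1, Fanci, Exo1, Brca2, Clspn, Pms2 and the longer Rad54b. Those 13 entered the test because they were high there, so that they had to differ from the controls. Their differences, p-values, counts and medians below are descriptions, in every comparison that involves a post-PH group.

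The promoters are shown for what the choice of genes did not use, their sequence. RefSeq (GRCm38.p6) gave the 250 bases before and 50 after the start for 25 of the 33 genes (29 promoters). Rad54b, Exo1, Xrcc2, Fancd2, Tipin, Rad50, Nbn and Prkdc had no entry. An E2F-type site, written as TTTCCCGC, TTTGGCGC, TTTCGCGC or TTTGCCGC on either strand, was found in 8 of these 29 promoters (27.6%), of 7 genes, against 2.26% of all 32851 promoters and 3.83% of the 11708 promoters of genes tested here. The genes were Bard1, Brca2, Rad51c, Chek2, Clspn, Msh6 and Xrcc6. CCAAT was in 51.7% of member promoters, 37.4% of all promoters and 38.0% of those of genes tested. The CHR letters TTTGAA or TTCGAA were in 6.9%, 19.2% and 14.5%, and the E-box CACGTG in 6.9%, 7.15% and 9.73%. No motif contains another, and a match is a match of letters, not a bound site. The lines show 30 bases, read along the gene's own strand, around each E2F-type match lying wholly before the start of a member, with the match in capitals.
Bard1, chr1:71103163-71103192, minus strand: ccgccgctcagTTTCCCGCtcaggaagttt
Brca2, chr5:150522442-150522471, plus strand: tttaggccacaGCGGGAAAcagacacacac
Chek2, chr5:110839820-110839849, plus strand: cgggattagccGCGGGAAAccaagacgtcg
Xrcc6, chr15:82016312-82016341, plus strand: agggggtggaaGCGGGAAAtgcgagtgggc
All 4 carry TTTCCCGC, in the reverse direction in Brca2, Chek2 and Xrcc6. The difference in transcript level between X48 and S48, described next, was 2.13 for Bard1, 1.55 for Brca2, 2.47 for Chek2 and 0.67 for Xrcc6.

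At 48 h, with both operations at ZT 2, 31 of the 34 rows were higher in X48 than in S48 and none was lower. The background is high at this time, since 24.5% of all genes tested were called higher. The median difference was 1.67 over the members and 0.27 over all genes, and the members ranged from 0.37 (Xrcc5) to 2.74 (the longer Rad54b). Scaling the libraries to a common median moved the median of all genes to -0.10 and that of the members to 1.33. Then 24 rows were higher and none was lower, while 7.08% of all genes were higher and 11.2% lower, and Xrcc5 turned to -0.11. In 32 rows every X48 library was above every S48 library, as for 41.5% of all genes. The exceptions were Xrcc5 and Ung. Of the 21 rows detected in an unoperated or sham library 18 were higher, with a median of 0.98, and the 13 detected in post-PH libraries alone had a median of 2.13. Some of the 21 were barely detected there. Chek1 exceeded the threshold in 1 of those 34 libraries, Blm and Xrcc2 in 2 and the shorter Rad54b in 3. Their differences and p-values are descriptions as well.

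The members of homologous recombination were all higher, 12 of 12 rows with both Rad54b rows counted, with a median of 2.05. Of these, 6 were detected in an unoperated or sham library, with a median of 1.94, but all except Xrcc3 in 6 or fewer of the 34 such libraries. The largest difference was that of Rad54b (ENSMUSG00000078773, mm9 chr4:11486096-11542952, plus strand), a motor protein related to Rad54l. Its S48 libraries had 0.0652, 0.129 and 0.0697 RPKM and its X48 libraries 1.59, 2.02, 1.87, 2.45 and 2.15, a difference of 2.74 (SE 0.16, adjusted p 2.73e-23). The second Rad54b row (ENSMUSG00000066307, chr4:11506812-11511983) lies inside the first on the same strand and shares no exon base with it. It had 0.109, 0.0572 and 0.0774 RPKM in S48 and 1.16, 1.12, 1.61, 1.22 and 1.41 in X48, a difference of 2.23 (SE 0.17). Rad51ap1, which stimulates strand pairing, had 0.0439, 0.0231 and 0.0834 RPKM in S48 and 0.806, 1.62, 1.14, 1.68 and 1.80 in X48, a difference of 2.43 (SE 0.20, adjusted p 5.61e-17). The groups of these rows lay far apart. The longer Rad54b and Rad51ap1 passed the filter through post-PH libraries alone, so that it fixed their direction and their p-values are descriptions. At the other end stood Xrcc3, a protein of strand exchange, with 0.253, 0.517 and 0.346 RPKM in S48 and 0.746, 0.670, 0.803, 0.834 and 0.841 in X48. Its difference of 0.75 (SE 0.20, adjusted p 0.00146) became 0.40 (adjusted p 0.115) with the scaled libraries. Between them lay Xrcc2 (2.33), Bard1 (2.13), Rad54l (2.04), Brca1 (1.82), Exo1 (1.82), Brca2 (1.55) and Rad51c (1.08). The helicase Blm, which unwinds recombination intermediates, had 0.141, 0.185 and 0.201 RPKM in S48 and 1.17, 1.25, 1.46, 1.73 and 2.18 in X48 (2.06, SE 0.17).

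All 4 Fanconi genes were higher, with a median of 2.15, but none of them was detected in an unoperated or sham library, so that the filter fixed the direction for the whole class. Fanci, whose product pairs with Fancd2 as the clamp of the pathway, had 0.0202, 0.0159 and 0.0574 RPKM in S48 and 0.985, 1.85, 1.72, 1.78 and 1.59 in X48. The difference was 2.68 (SE 0.19, adjusted p 7.2e-20). Fanca, a subunit of the core ligase, had 0.0411, 0.0378 and 0.0439 RPKM in S48 and 0.725, 1.06, 1.05, 1.24 and 1.23 in X48 (2.16, SE 0.15), and Fancd2 differed by 2.15 (SE 0.14). Brip1, the helicase partner of Brca1, had 0.152, 0.240 and 0.144 RPKM in S48 and 0.800, 1.42, 1.25, 1.34 and 1.38 in X48 (1.78, SE 0.16). X48 replicate 1 was the lowest of the 5 for both Fanci and Brip1. Rad18, the ligase that marks the clamp PCNA for synthesis past lesions, had 0.135, 0.119 and 0.143 RPKM in S48 and 1.34, 1.65, 1.54, 1.81 and 2.42 in X48 (2.37, SE 0.19).

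Checkpoint and fork-protection members were higher in 7 of 7, with a median of 1.48. Chek2, the kinase downstream of Atm, led them: 0.349, 0.490 and 0.625 RPKM in S48 and 2.72, 3.70, 3.66, 4.71 and 4.52 in X48, a difference of 2.47 (SE 0.21, adjusted p 7.46e-16). Chek1, the kinase downstream of Atr, had 0.0813, 0.158 and 0.142 RPKM in S48 and 1.02, 1.66, 1.21, 1.73 and 1.78 in X48 (2.18, SE 0.23, adjusted p 1.85e-12). Every Chek2 library was above every Chek1 library of the same group, in S48 as in X48. Clspn (1.99), the partners Tipin (1.48) and Timeless (1.23), and Atr (1.20) followed. Atm, the kinase that answers double-strand breaks, differed least: 0.767, 0.603 and 0.592 RPKM in S48 and 0.965, 0.877, 1.25, 0.865 and 1.22 in X48. Its difference of 0.50 (SE 0.17, adjusted p 0.014) sits at the limit and was no longer called with scaled libraries (0.12, adjusted p 0.617) or without any one of S48 replicates 2 and 3 or X48 replicates 3 and 5 (0.44 to 0.46).

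The genes of base excision and mismatch repair moved less, 3 of 4 higher with a median of 0.69. Ung, the glycosylase that takes uracil out of DNA, had 1.23, 2.80 and 1.74 RPKM in S48 and 5.84, 2.60, 3.14, 3.38 and 4.95 in X48, so that the groups overlapped. Its difference was 0.97 (SE 0.29, adjusted p 0.00563), and without S48 replicate 1 it was 0.72 (adjusted p 0.0864). Pms2, the endonuclease subunit of mismatch repair, had 0.0895, 0.0978 and 0.196 RPKM in S48 and 0.288, 0.487, 0.386, 0.458 and 0.451 in X48 (0.82, SE 0.10). Pms2 shares 410 exon bases (4.86%) with Rsph10b2 on the same strand, and reads there cannot be assigned to one of them. Parp1 had 6.98, 8.44 and 8.05 RPKM in S48 and 10.3, 11.9, 11.8, 12.8 and 11.5 in X48 (0.56, SE 0.12, adjusted p 0.00012). Msh6, which recognises mismatched bases, did not pass the limit of fold change at 48 h, with 2.12, 2.27 and 2.26 RPKM in S48 and 2.78, 3.21, 3.06, 3.23 and 3.44 in X48 (0.46, SE 0.15, adjusted p 0.0102).

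Break-end and end-joining members had a median of 0.62, with 4 of 6 higher. Rad50, of the Mre11 complex, had 0.863, 0.889 and 1.21 RPKM in S48 and 1.97, 2.09, 2.32, 2.22 and 2.30 in X48 (0.98, SE 0.13, adjusted p 2.93e-09). Lig4, the ligase of end joining, had 0.914, 1.22 and 1.18 against 1.93, 2.14, 1.55, 2.21 and 2.11 RPKM (0.73, SE 0.15). These 2 separated fully. Xrcc6 had 2.51, 2.92 and 3.09 RPKM in S48 and 3.63, 5.30, 4.85, 5.14 and 4.54 in X48 (0.67, SE 0.11), and Nbn 4.13, 3.85 and 4.98 against 6.54, 6.58, 6.43, 6.19 and 6.76 (0.57, SE 0.12). The remaining 2 did not pass the limit. Prkdc, the kinase recruited by Ku, had 0.515, 0.449 and 0.476 RPKM in S48 and 0.670, 0.768, 0.791, 0.675 and 0.905 in X48 (0.47, SE 0.15, adjusted p 0.00861). Xrcc5 had 7.09, 6.39 and 8.83 against 9.14, 9.87, 10.4, 10.0 and 8.59 RPKM (0.37, SE 0.12, adjusted p 0.00944). With scaled libraries Parp1 (0.08), Nbn (0.10), Xrcc6 (0.21), Lig4 (0.30) and Ung (0.51) also lost the call.

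**Figure D1:**
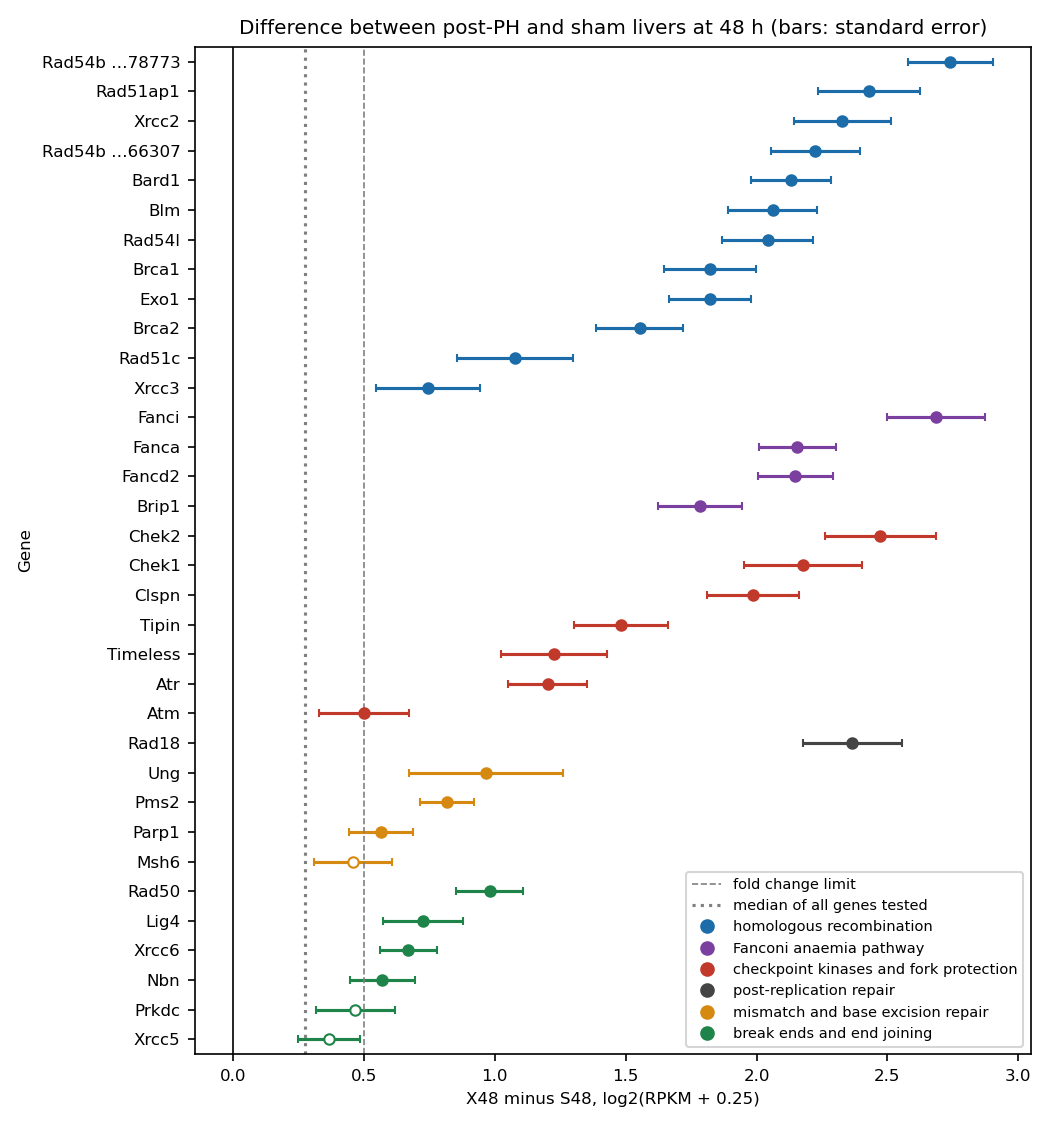
X48 minus S48 on the log2(RPKM + 0.25) scale for the 34 rows, grouped by class (colour), with bars for 1 standard error. Filled points were called higher and the 3 open points (Msh6, Prkdc, Xrcc5) were not. The dotted line is the median of all genes tested, 0.27, and the homologous recombination, Fanconi and checkpoint rows reach 2.74, 2.68 and 2.47, while the end-joining rows stay at or below 0.98.

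In 107 further repair genes, listed by function, 61 were higher in X48 than in S48, none was lower and the median was 0.66, against 24.5% and 0.27 for all genes. Checkpoint signalling gave 15 of 19 (median 1.12), homologous recombination 18 of 24 (1.11), the Fanconi pathway 6 of 9 (0.92), end joining 5 of 8 (0.66) and mismatch and base excision repair 11 of 23 (0.49). Nucleotide excision repair, which removes bulky lesions, gave 3 of 14 (0.40) and the other post-replication genes 3 of 10 (0.38), both near the share over all genes. The 2 largest differences were those of Ube2t, the conjugating enzyme of the Fanconi pathway (3.40, SE 0.21), and Fignl1, which acts in homologous recombination (3.22, SE 0.24). All 15 replication genes used for reference were higher (median 2.22), as were all 15 mitosis genes (median 5.25). The same detection filter applied to the further and the reference genes. How many of them passed it through post-PH libraries alone was not counted, so their counts and medians are descriptions too.

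In whole liver, more cells that express a gene and more RNA per cell cannot be told apart. Of 8 stellate-cell markers 6 were higher in X48 than in S48, with a summed level of 65.3 to 118 RPKM against 52.9 to 55.6. Col1a1 led them with a difference of 2.79. The summed cholangiocyte markers were 35.3 to 48.2 RPKM in X48 and 22.7 to 33.0 in S48, with 1 of 6 called (Spp1, 0.68). In C0 the sums were 55.2 to 93.0 RPKM for the stellate-cell and 31.0 to 63.3 for the cholangiocyte markers, so that the X48 cholangiocyte sums lay within the C0 range. None of 8 endothelial, 7 macrophage or 6 lymphocyte markers was higher, 1 of 7 neutrophil markers was, and 1 of 8 hepatocyte and 1 of 6 erythroid markers were lower. The part of these cells in the members' rise was not tested.

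At 20 h the difference between operations was smaller and fell on fewer genes. In X20 7 members were higher than in S20, against 4.49% of all genes, and none was lower. With scaled libraries 5 were. The median was 0.32 over the members and 0.07 over all genes. The members called were 4 of the 7 checkpoint genes, Atr (0.74, SE 0.15, adjusted p 0.00038), Timeless (0.71), Chek1 (0.65) and Tipin (0.65), together with Brca1 (0.66), Rad18 (0.53) and Ung (1.05, SE 0.29, adjusted p 0.00885). Ung had 1.70, 1.67 and 2.19 RPKM in S20 and 4.42, 4.43, 3.42, 4.40, 3.87 and 4.08 in X20, which separated completely. Chek1 had 0.0441, 0.0624 and 0.0702 RPKM in S20 and 0.491, 0.485, 0.247, 0.183, 0.0569 and 0.115 in X20, which overlapped. That spread followed the replicate numbers. In Rad51ap1 X20 replicates 1 to 3 had 0.224, 0.186 and 0.181 RPKM and replicates 4 to 6 had 0.0186, 0.0167 and 0.0104. With replicates 1 to 3 alone 14 members were higher than in S20, and with replicates 4 to 6 alone 3 were. Leaving out S20 replicate 1 or replicate 2 also left 3. The study's supplement places all S20 livers in a single experimental period and divides X20 between that period and an earlier one, without saying which replicate belongs to which. The 20 h comparison, and with it the change from 20 to 48 h below, therefore sets part of X20 against sham livers of another period, which the fit ignores, and period and response cannot be told apart there. The same holds at 10 h, where S10 came from a single period and X10 was divided. S4 and X36 were also divided, while X28 and X44 came from a single period. S48 and X48 came from a single period.

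The effect of PH itself, X minus S, was larger at 48 h than at 20 h for 25 members and smaller for none, against 12.5% of all genes. The 25 include the 13 rows detected in post-PH libraries alone, so that the count is a description. The members with the largest gain were Chek2 (2.44, SE 0.29, adjusted p 6.4e-10), Fanci (2.40) and the longer Rad54b (2.36). The 9 not called were Msh6, Prkdc, Xrcc5, Nbn, Ung, Atr, Atm, Timeless and Lig4. For Ung the difference of the effects was -0.09 with an SE of 0.41, so that a sizeable gain or loss could not be detected.

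Over the full time course the step came between 28 and 36 h. Against C0 the members called higher numbered 10 in X20 (16.5% of all genes), 9 in X28 (13.6%), 32 in X36 (25.7%), 32 in X44 (30.8%), 29 in X48 (30.4%), 27 in X72 (26.6%) and 9 in X1W (12.4%). With scaled libraries the counts from X36 to X72 were 28, 26, 24 and 23, against 12.6%, 11.4%, 10.7% and 11.4% of all genes. From X28 to X36 30 members rose, against 15.1% of all genes (6.69% when scaled, with 27 members), and the median rise was 1.77, against 0.14 over all genes. This count and those against C0 include rows detected in post-PH libraries alone, which entered the test because they were high there, and are descriptions. Chek1 gave the largest step, with 0.449, 0.490 and 0.0717 RPKM in X28 and 3.78, 1.63, 4.53, 3.98, 4.13 and 4.91 in X36 (2.82). Even X36 replicate 2, at 1.63, was above every library from C0 to X28. X36 was taken at ZT 14 and X28 at ZT 6, and part of X36 came from another period than X28. Hours since PH, hour of the day and period cannot be told apart in this step. Without X36 replicate 2 30 members rose. Ung (0.18), Xrcc5 (0.23), Xrcc6 (0.37) and Lig4 (0.46) were not called in this step. X20 was taken at ZT 22 and divided between periods. Hours since PH, hour of the day and period therefore cannot be told apart from X20 to X28 either. Between X20 and X28 little changed, with 1 member higher (Ung, 1.10) and 3 lower, Parp1 (-0.77), Atm (-0.76) and Prkdc (-0.75), against 10.3% of all genes called. X28 replicate 3 was low for many of the others. Without it 13 members were higher in X28 than in C0.

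Members differed in the first post-PH group called higher than C0. This order is a description of threshold crossings in groups of unequal n (3 in X4 and X28, 6 in X10 and X20), and the counts behind it ranged from 3 to 17 in X20 and in X28 over the settings tried. Ung came at 1 h and Lig4 at 4 h. For Ung the X1 libraries had 0.876 to 1.62 RPKM, against 0.362 to 1.62 in C0, and S1 was higher as well (0.66). Brca1, Nbn, Rad18, Atr and Timeless came at 10 h, and Prkdc, Chek1, Atm and the shorter Rad54b at 20 h. Tipin, Fanci and Clspn came at 28 h, 18 rows at 36 h, Xrcc6 at 44 h and Xrcc5 at 72 h. The highest mean fell in X36 for 14 rows and in X44 for 16. The other 4 were Nbn, highest in X10 at 7.15 to 9.61 RPKM, Prkdc in X20 at 0.797 to 1.14, Lig4 in X48 and Xrcc5 in X72 at 10.7 to 14.8. These peaks of Nbn, Prkdc and Lig4 overlapped the range of X36.

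From X36 to X44 3 members fell and 3 rose, against 3.05% and 6.48% of all genes. Timeless fell most, from 4.84, 1.87, 5.95, 5.06, 4.51 and 5.86 RPKM to 2.34, 1.66 and 1.72 (-1.13, SE 0.19, adjusted p 1.02e-05), with X36 replicate 2 inside the range of X44. Msh6 went from 8.56, 6.24, 8.55, 7.52, 7.97 and 9.35 RPKM to 4.64, 3.33 and 4.23 (-0.94, SE 0.15), without overlap, and Ung from a range of 6.71 to 12.1 to 4.75 to 6.29 (-0.82, SE 0.29). The 3 that rose were the Fanconi genes Fanci (0.75, from 0.497 to 2.47 RPKM in X36 to 1.71 to 3.39 in X44), Fanca (0.65) and Fancd2 (0.54). Without X36 replicate 2, the low library, 6 members fell and 2 rose. With scaled libraries 5 fell and 2, Fanci and Fanca, rose.

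**Figure D2:**
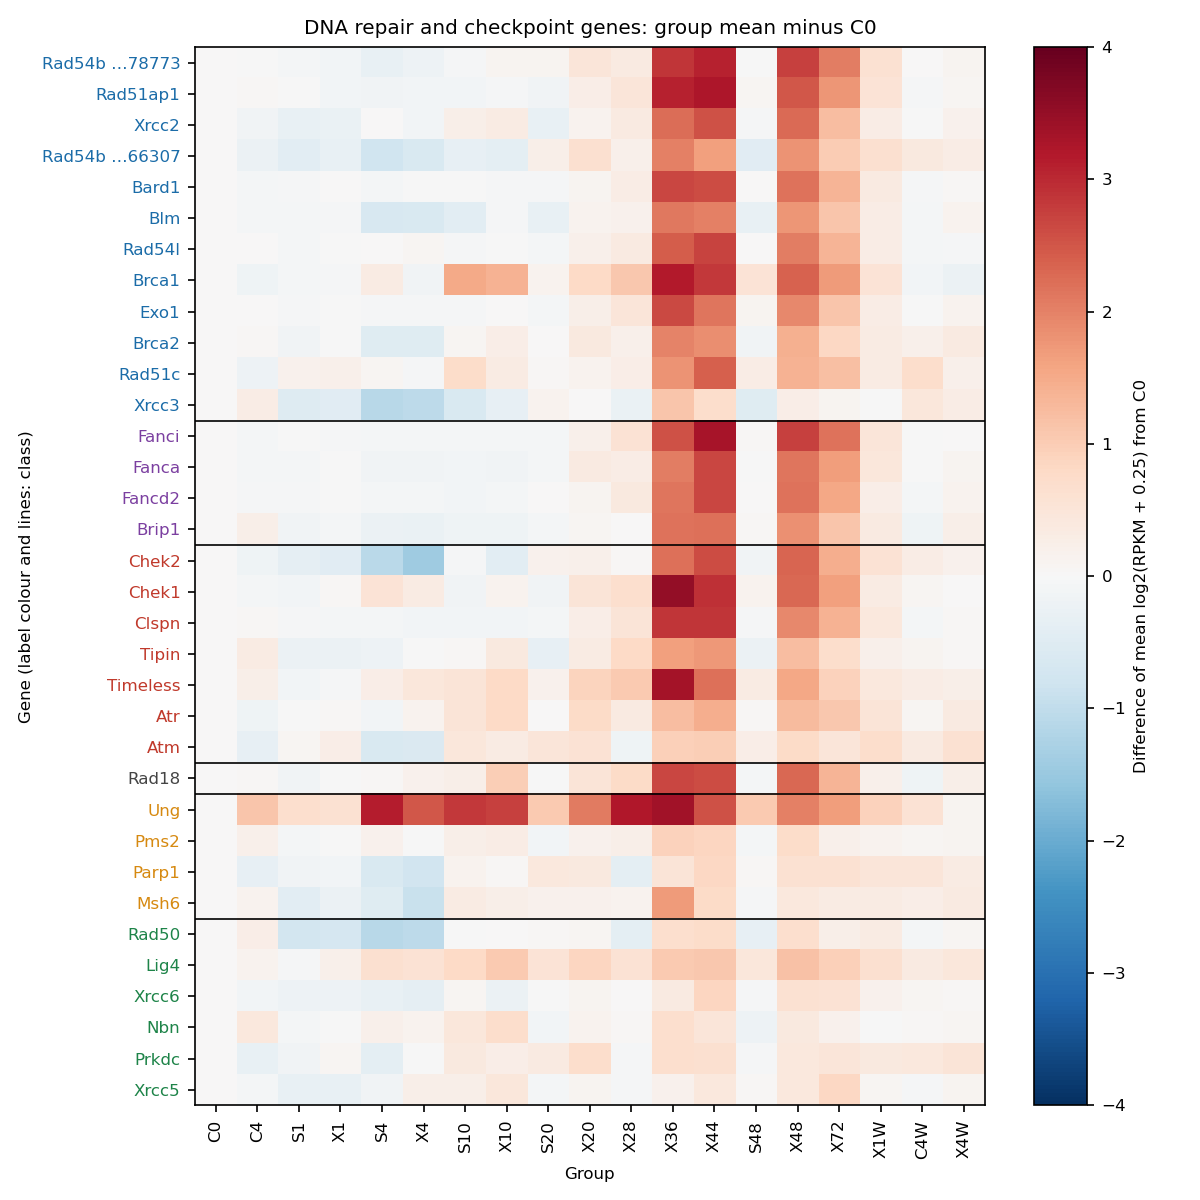
Group means of the 34 rows as differences from C0 on the log2(RPKM + 0.25) scale, red for higher and blue for lower, with groups in order of time across and genes down, split by lines into classes. X36, X44, X48 and X72 are red over most rows of the recombination, Fanconi and checkpoint classes and Rad18, most of all Chek1 in X36, and S48 between them is pale. Ung is red in C4 and in every sham and post-PH group through X1W, darkest in S4, X28 and X36, and Chek2, Xrcc3 and Rad50 are blue in S4 and X4.

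Across C0 and the 11 post-PH groups the members' mean profiles lay closer to the replication genes than to the mitosis genes in 29 of 34 rows. The median Pearson correlation over these 12 group means was 0.95 with replication and 0.857 with mitosis, which correlate at 0.888 with each other. The means share libraries and the times of day, and the values are descriptions. Clspn (0.989), Exo1 (0.985) and Rad51ap1 (0.983) were closest to replication. The 5 rows closer to mitosis were Fanci, Fanca, Xrcc6, Parp1 and Xrcc5. The least alike to replication were Xrcc5 (0.457) and Ung (0.534).

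The median level of the members came down from 44 h on over the groups analysed. No group lay between X48 and X72, and X44 was taken at ZT 22 while X48 and X72 were taken at ZT 2. The median difference of the members from C0 was 2.18 in X44, 1.77 in X48 and 1.10 in X72 (1.80, 1.40 and 0.85 with scaled libraries). Between X48 and X72 19 members fell, against 3.73% of all genes, led by Xrcc2 (-1.02), Rad18 (-0.93) and Chek2 (-0.86), and none rose. With scaled libraries 12 fell and Xrcc5 rose (0.51). Between X72 and X1W 20 fell, against 12.2% of all genes, led by Fanci (-1.70) and the longer Rad54b (-1.43). At 1 week Fanci had 0.135, 0.108 and 0.135 RPKM, still above all 9 C0 libraries at 0 to 0.0804, but its difference from C0 did not pass the limit. The 9 rows still called higher than C0 in X1W included Ung (0.91), Atm (0.70), both Rad54b rows (0.64 and 0.60), Chek2 (0.59) and Brca1 (0.55). Without X1W replicate 3 they were 5, and with scaled libraries 4. At 4 weeks none of the members differed between X4W and C4W by limma, none at an unadjusted p under 0.05 either, and 0.065% of all genes were called. The members ranged from -0.48 to 0.43, and with 2 livers in each group differences of this size could not be detected.

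**Figure D3:**
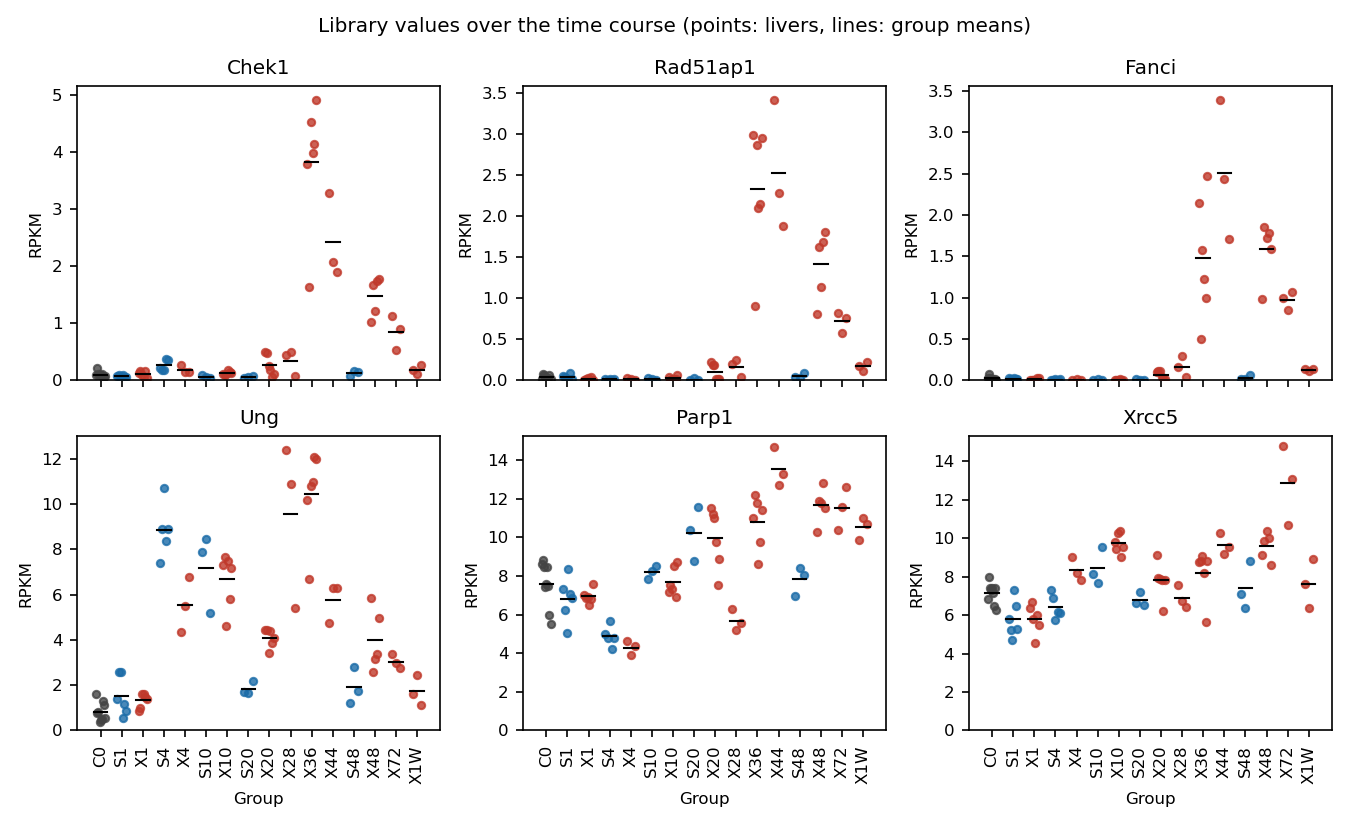
RPKM in each liver (points) with group means (lines) for 6 members over C0, sham (blue) and post-PH (red) groups. Chek1, Rad51ap1 and Fanci stay at or below 0.491, 0.249 and 0.293 up to X28 and reach 4.91, 2.99 and 2.47 in X36, while Ung is already at 7.41 to 10.7 in S4. Parp1 and Xrcc5 start from means of 7.59 and 7.13 in C0 and have their highest means in X44 and X72.

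In the first 10 h few members differed between PH and sham. X1 and S1 differed in no member by limma (1 at an unadjusted p under 0.05) and in 0.65% of all genes. X4 and S4 differed in no member (5 at an unadjusted p under 0.05), while 8.64% of all genes were called. The 3 Ung values in X4, 4.36 to 6.77 RPKM, lay below the 5 in S4, 7.41 to 10.7, but the difference of -0.67 had an adjusted p of 0.125. Brca1 was likewise below in every library (-0.46, adjusted p 0.0673), and Prkdc (0.38, adjusted p 0.0833) and Xrcc5 (0.36, adjusted p 0.0285) were above in every library, with Xrcc5 under the limit of fold change. In X10 1 member, Rad18, was higher than in S10, against 7.02% of all genes called: it had 0.253, 0.208 and 0.221 RPKM in S10 and 0.687, 0.444, 0.471, 0.485, 0.794 and 0.441 in X10 (0.73, SE 0.18, adjusted p 0.00424).

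At 4 h the members were lower about as often as other genes. In X4 8 members (23.5%) were lower than in C0, against 26.9% of all genes, and in S4 7 (20.6%) were, against 22.7%, so that what follows describes single genes. These 2 comparisons share the C0 libraries, and the S4 columns were matched to their labels by replicate number, with further S4 columns left over. Chek2 had a C0 range of 0.433 to 0.707 RPKM (median 0.580, n = 9), 0.109, 0.0671, 0.0994, 0.232 and 0.163 in S4 and 0.0735, 0.0628 and 0.0148 in X4. Its difference from C0 was -1.09 (SE 0.16) in S4 and -1.44 (SE 0.19) in X4. Rad50 went from 1.05 to 1.54 RPKM in C0 to 0.376 to 0.542 in S4 (-1.12) and 0.449 to 0.537 in X4 (-1.04). Xrcc3 went from 0.463 to 0.729 in C0 to 0.187 or less in S4 (-1.11) and 0.120 to 0.231 in X4 (-1.05). For these 3 genes no library of S4 or X4 reached the C0 range. Parp1 (-0.60 and -0.77), Blm (-0.63 and -0.60), Atm (-0.60 and -0.59) and the shorter Rad54b (-0.80 and -0.62) were lower in both, and Msh6 (-0.89) in X4. Scaling left 8 lower in X4 and 6 in S4. The unoperated C4 livers, of the same ZT 6, had 0.607, 0.260 and 0.574 RPKM of Chek2 and 1.74, 1.47 and 1.53 of Rad50, and 1 member, Ung, was called between C4 and C0, against 7.89% of all genes. Parp1, with 5.73, 5.55 and 6.33 RPKM in C4, differed there by -0.34 (adjusted p 0.0266). Atm, with 0.334, 0.312 and 0.413, differed by -0.32 (adjusted p 0.157). These values lay below the C0 means of 7.59 and 0.524 without an operation. However, C0 replicates 7 to 9 had 7.47, 5.96 and 5.49 RPKM of Parp1 and 0.332, 0.293 and 0.244 of Atm. The study's supplement places all C4 livers in a single period and spreads C0 over 3. Hour and period therefore cannot be told apart in C4 against C0. Rad50 was already lower at 1 h, in X1 (-0.68, with 13.5% of all genes called) and in S1 (-0.73, with 7.77%), where Xrcc3 was lower too (-0.51).

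**Figure D4:**
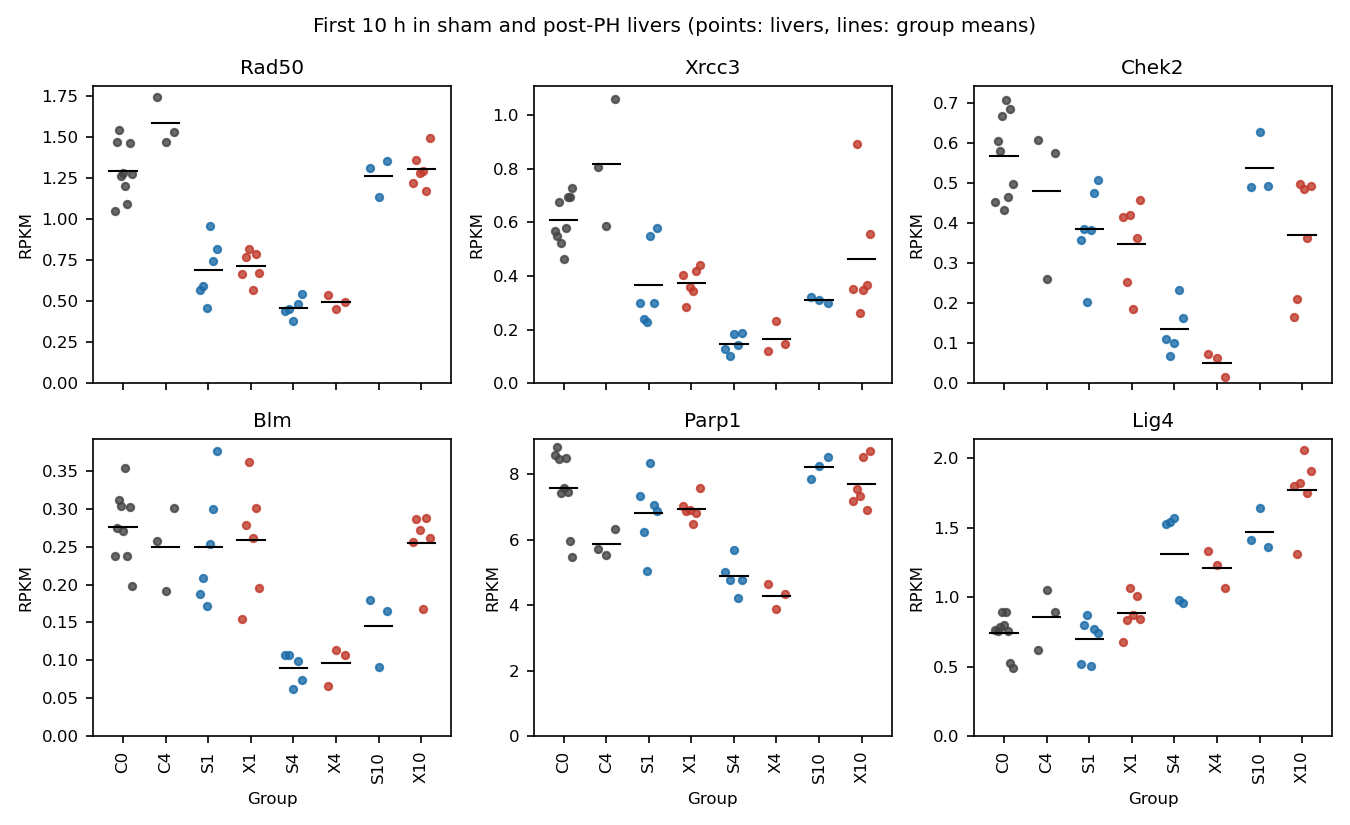
RPKM in each liver (points) with group means (lines) for Rad50, Xrcc3, Chek2, Blm, Parp1 and Lig4 in C0, C4 and the sham (blue) and post-PH (red) groups of the first 10 h. Rad50, Xrcc3 and Chek2 lie below all C0 livers at 4 h after either operation, and Lig4 lies above.

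Members were higher no more often than other genes in these hours. In S4 3 (8.82%) were higher than C0, against 11.7% of all genes, and in X4 2 (5.88%), against 11.2%. Ung had the largest difference: from 0.362 to 1.62 RPKM in C0 to 7.41, 8.90, 10.7, 8.37 and 8.91 in S4 (3.16, SE 0.23) and 4.36, 5.48 and 6.77 in X4 (2.49, SE 0.27). It had 1.34, 2.66 and 1.97 RPKM in C4 (1.10, SE 0.27, adjusted p 0.00362) and 0.61 more than C0 in X1 and 0.66 in S1. Lig4 differed by 0.65 in S4 and 0.57 in X4, and Chek1 by 0.55 in S4. In S4 replicates 1 to 3 Lig4 had 1.53, 1.54 and 1.57 RPKM, and in replicates 4 and 5 0.979 and 0.956. Chek1 had 0.215, 0.178 and 0.180 against 0.378 and 0.347, with 0.0502 to 0.213 in C0. The study's supplement divides S4 between periods without naming the replicates, so period and response cannot be told apart at 4 h either. At 10 h 6 members (17.6%) were higher in S10, against 17.9% of all genes, and 7 (20.6%) in X10, against 21.2%. Brca1 had 0.775, 0.753 and 0.984 RPKM in S10 and 0.562, 0.508, 0.893, 0.988, 0.807 and 0.837 in X10, both above the C0 range of 0.0551 to 0.219 (1.52 and 1.40). Ung (2.84 and 2.75), Lig4 (0.81 and 1.03), Atr (0.51 and 0.78) and Timeless (0.51 and 0.79) were higher in both. Nbn (0.70) and Rad18 (0.97) were called in X10, and Rad51c (0.73) in S10, where Xrcc3 was lower (-0.61).

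In the later sham groups little was left. In S20 2 members were higher than C0, Ung (1.04) and Lig4 (0.53), against 7.85% of all genes, and in S48 2 were, Ung (1.03) and Brca1 (0.54), against 3.83%. Brca1 had 0.192, 0.395 and 0.336 RPKM in S48, and 1 of the 3 lay inside the C0 range. These small counts moved with the choice of C0 libraries, from 0 with C0 replicates 1 to 3 alone to 5 with replicates 7 to 9 alone, in S20 and in S48 alike.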

How the data were processed

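Poly(A) RNA of single livers was sequenced (stranded TruSeq libraries, 100-nt single-end reads, no spike-in). According to the study's methods and notes, reads were mapped to mm9 with TopHat2 (2.0.13) and Bowtie2, handled with SAMtools (0.1.19) and counted with featureCounts on Ensembl genes, a multi-mapped read being shared among its positions. The deposited values are log2 RPKM made by the authors. Genes without reads carry one lowest value and were set to 0 RPKM. Of 87 labelled samples 80 had a column. The 7 others (3 of X4, 3 at 60 h and 1 of X4W) were not analysed here. The S4 columns were matched to the 5 labelled S4 livers by replicate number. The 4 columns that match no label carry further S4 numbers and were not used. Which columns belong to S4 is therefore less certain than for the other groups. Because counts were not given, limma (3.58.1, R 4.3.3) was fitted to log2(RPKM + 0.25) over 19 groups, with a mean-variance trend, for the 15396 genes above -1.5 log2 RPKM in at least 1 library. Benjamini-Hochberg adjustment ran over all genes of a comparison. Calls needed an adjusted p under 0.05 and a difference beyond 0.5. Depth was estimated from the steps between low values. In the median library 76.2% of low values lay within 0.05 of a whole read, and in the lowest (X28 replicate 2) 37.1%. The 160 pairs of libraries of one group all differed by more than counting error (lowest ratio 1.48). Positions and exon overlap come from the GENCODE annotation of mm9, promoters from RefSeq. The test was tried on simulated data. The members, classes and other lists were chosen with earlier results of these data known. Library values are given in full for the 2 members with the largest and the 1 with the smallest X48 minus S48 difference of each class, for members whose call depends on a setting and for members lower after PH than in unoperated or sham livers. Alternatives were the pseudocount, the filter, median scaling, the groups in the fit, the fold limit, the replicate number, subsets of C0 and of groups of 6, and leaving out libraries. Each library is 1 liver. Mice were operated on and killed 3 at a time, in 3 periods that the labels do not assign to replicates, so p-values measure the spread between these livers alone.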

Additional observations from a re-analysis of the deposited data

Results flagged for a closer look

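In 176 sets of 5 to 9 libraries tested for the members described in full, 16 had a library far from the others by Dixon's test, where chance gives about 1 in 20. The sets share libraries and are not independent tests. In 5 it was X36 replicate 2, the lowest of 6 for Ung (6.71 RPKM), Rad18 (1.07), Rad51ap1 (0.899), Chek1 (1.63) and Brip1 (1.01). In 3 it was C0 replicate 2, the highest of 9 for Chek1 (0.213), Fanca (0.127) and Fanci (0.0804). X48 replicate 1 was the lowest of 5 for Brip1 (0.800) and Fanci (0.985). The others were single cases: Xrcc5 in X36 replicate 5 (5.63), Blm in X10 replicate 4 (0.168), Fanca in X10 replicate 5 (0.0306, the highest), Atm in X10 replicate 1 (0.454), Lig4 in X10 replicate 2 (1.31) and Lig4 in X20 replicate 5 (1.16).

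The PH effect differed between 48 and 20 h, by the interaction term in limma, for 15 of the members described in full. The gain was 2.44 for Chek2, 2.40 for Fanci, 2.36 for the longer and 1.82 for the shorter Rad54b, 2.01 for Rad51ap1, 1.83 for Rad18, 1.72 for Fanca, 1.63 for Brip1, 1.61 for Blm and 1.52 for Chek1. It was 0.92 for Rad50, 0.86 for Xrcc3, 0.61 for Parp1, 0.55 for Xrcc6 and 0.55 for Pms2.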

How the results depend on the processing

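The counts of members called in X48 against S48 (24 to 34 over the other settings, 29 to 31 leaving out a library), in X36, X44, X48 and X72 against C0, in X36 against X28 and in the comparison of the 48 and 20 h effects stayed within 1.5 times under every alternative run. Of the 34 differences between X48 and S48, 23 kept their call in all 16 alternatives, and Xrcc5 reversed to -0.113 with scaled libraries. The smaller counts moved. With a pseudocount of 0.1 they were 1 for X4 against S4, 12 for X20 against S20, 16 for X28, 18 for X1W and 5 for S48 against C0. With a pseudocount of 1 they were 0 for X10 against S10, 3 for X20 against S20, and against C0 3 for X20, X28 and S10 and 1 for X1W, S20 and S48. Scaling gave 4 for X1W and 1 for S20. A fit of the compared groups alone gave 1 for X4 against S4, 3 for X20 against S20, 1 for S20 and for S48, and 2 for X44 against X36. Without the fold limit the counts were 1 (X4 against S4), 2 (X10 against S10), and against C0 19 (X10), 16 (X20), 17 (X28), 18 (X1W), 13 (S10), 4 (S20) and 5 (S48). C0 replicates 1 to 3 alone gave 3 for X1W and 0 for S20 and S48, replicates 4 to 6 gave 6 for X20, 3 for X1W and 1 for S20 and S48, and replicates 7 to 9 gave 5 for S20 and S48. X20 replicates 1 to 3 gave 14 against S20 and 17 against C0, and replicates 4 to 6 gave 3 and 6. Leaving out 1 library gave 0 to 1 for X4 against S4 (1 without S4 or X4 replicate 4), 3 to 7 for X20 against S20, 5 to 13 for X1W, 1 to 4 for S20 (4 without S20 replicate 2, 1 without replicate 3) and 1 to 3 for S48 (1 without S48 replicate 2 or 3). The cause was not tested. X36 replicate 2 and C0 replicate 2 were left out, and secondary comparisons scaled, after the data had been seen.

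Same-numbered libraries did not deviate together: in 0 of 18 comparisons was every pair's correlation above 0.1 (range -0.186 to 0.296). With the replicate number as a block the counts were 1 for X4 against S4 and 1 for S20 against C0, and Atm (0.467) lost its call in X48 against S48. X4 with replicates 1 to 3 could not be run, since those libraries have no column.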
